A study of Mus musculus with 15 samples.

Results

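The proteasome subunit genes were taken as every gene of the RNA count files whose symbol starts with Psm, a letter from a to g and a digit. The pattern found 49 of 19069 genes, and their transcripts, open chromatin and promoter acetylation were followed in fibroblasts after ultraviolet light. The rule used the symbols and no measured value. By the role of their products, 8 genes encode the alpha ring and 7 the beta ring of the 20S core, and 4 encode the exchangeable beta subunits of the immunoproteasome and thymoproteasome. The 19S cap is encoded by 6 ATPase genes and 11 non-ATPase genes, 5 genes encode activators and an inhibitor, and 7 encode assembly chaperones. The last match, Psmc3ip, encodes a recombination factor that shares only the start of the symbol, so it was counted as a member and put in no class.

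The proteasome degrades proteins that carry ubiquitin chains. Its 20S core is a barrel of stacked alpha and beta rings in which the beta subunits hold the proteolytic sites, and the 19S cap binds, unfolds and feeds in the substrate. Other activators can take the place of the cap, dedicated chaperones assemble the parts, and interferon-induced beta subunits can replace the constitutive catalytic ones to form the immunoproteasome, which makes peptides for MHC class I. Transcription of the subunit genes is known to be raised together by the factor NRF1 (Nfe2l1) when proteasome activity falls short.

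The cells were NIH3T3, an established line of mouse embryonic fibroblasts. They were either untreated or irradiated with 80 J/m2 of UV-C at 254 nm, which damages DNA at neighbouring pyrimidines, and then kept for 6 h in fresh medium with the solvent DMSO. It is not stated if the untreated cells also received DMSO or a change of medium, so irradiation and handling cannot be told apart. RNA-seq had 3 untreated and 3 UV libraries. FAIRE-seq, which recovers DNA that is poorly bound by protein, and ChIP-seq for H3K27ac, a histone mark of active promoters, each had 2 samples per condition, with 1 input, among 15 samples in all.

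Total counts per RNA library ran from 14211528 to 22032701. The labels do not say that replicates were separate cultures, so p-values measure the spread between these libraries. UV replicate 1 stood apart: its counts differed from those of UV replicates 2 and 3 with a chi-square per degree of freedom of 52.07 and 50.41, against 5.06 between the other UV libraries, and it had 17607 genes detected against 18350 to 18787 in the other libraries. The untreated libraries differed from each other by 15.19 to 41.03 on the same measure. Of 10 fibroblast markers 9 had a mean above 1 CPM (the count scaled to a common library size, with library sizes scaled by the trimmed mean of M-values), with Fap at 0.1 to 1.0 CPM. Together the 10 summed to 17075 to 22197 CPM in untreated and 21380 to 37795 CPM in UV libraries. The summed levels of 5 blood markers were 8.76 to 10.6 CPM untreated and 15 to 19.1 CPM after UV, those of the epithelial, endothelial and muscle markers overlapped between the groups and stayed at or below 9.88 CPM, and no marker was at 0 in all libraries. Whether these levels have a part in the results below was not tested. In a bulk sample, fewer cells and less RNA per cell cannot be told apart.

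In RNA, 7 proteasome genes rose and 2 fell after UV, and the 39 other tested members did not pass the test. The genes that rose were Psmb3, Psmb4, Psmb5 and Psmb6 of the beta ring, Psma7 of the alpha ring, Psmb9 of the immunoproteasome and Psmd8 of the 19S cap. Those that fell, Psmg2 and Psmg3, both encode assembly chaperones. The calls come from edgeR's quasi-likelihood test at a Benjamini-Hochberg adjusted p of 0.05 over 14925 tested genes, of which 7.7% were called higher and 12.4% lower. Psma8, a testis form of an alpha subunit, had 1 to 8 counts per library and was not tested. The other 48 members had a median log2 fold change of 0.38, against -0.01 for all tested genes, and 41 of them lay above 0 and 7 below. At an unadjusted p of 0.05, 18 lay above and 3 below, against 13.4% and 16.7% of all tested genes. In 25 members every UV library exceeded every untreated one and in 3 every UV library was below, against 16.6% and 17.3% of all tested genes. All statements on overlap of levels use CPM with library sizes scaled by factors from 0.803 (UV replicate 1) to 1.19 (untreated replicate 3). Without these factors UV replicate 1 would lie below untreated replicate 2 in Psma3, Psma4, Psma6, Psmb1, Psmb10, Psmg1 and Psmg4, so their groups would overlap. Most members are well expressed, and 40 of them lie among the 7463 tested genes with a mean level above the median of all. In that background, chosen after the data were seen, 12.2% of genes were called higher, 24% had every UV library above every untreated one, and the median was 0.04. The 7 higher calls among 48 members are near that share and are no result about the family as a whole, so the classes are described one by one.

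The count of calls moved with single libraries, and so did the share of all tested genes that were called. Without UV replicate 3 it was 2 higher (Psmb6 and Psmd8), with 3.75% of all genes higher, and without untreated replicate 2 it was 25 higher, with 12.5% of all. It was 12 without untreated replicate 1 (11.5% of all) and without untreated replicate 3 (10.1% of all). Without UV replicate 1 it was 9 higher and 5 lower, with 7.62% and 18.3% of all genes. The median of the members was 0.60 without untreated replicate 2. Without a filter on low counts 3 genes were called higher (Psmb6, Psmb9 and Psmd8), with 4.19% of all, and with 1 CPM required in 3 libraries 14 were, with 12.2% of all. Scaling by library totals alone moved the median of all tested genes to -0.24 and that of the members to 0.15. It gave 9 higher and 7 lower members, with 6.06% of all genes higher and 25.1% lower. Psmb6, Psmd8, Psmg2 and Psmg3 were called in the same direction in each of the 12 other settings run. The plot of fold changes by class shows the members in the order of their roles.

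**Figure D1:**
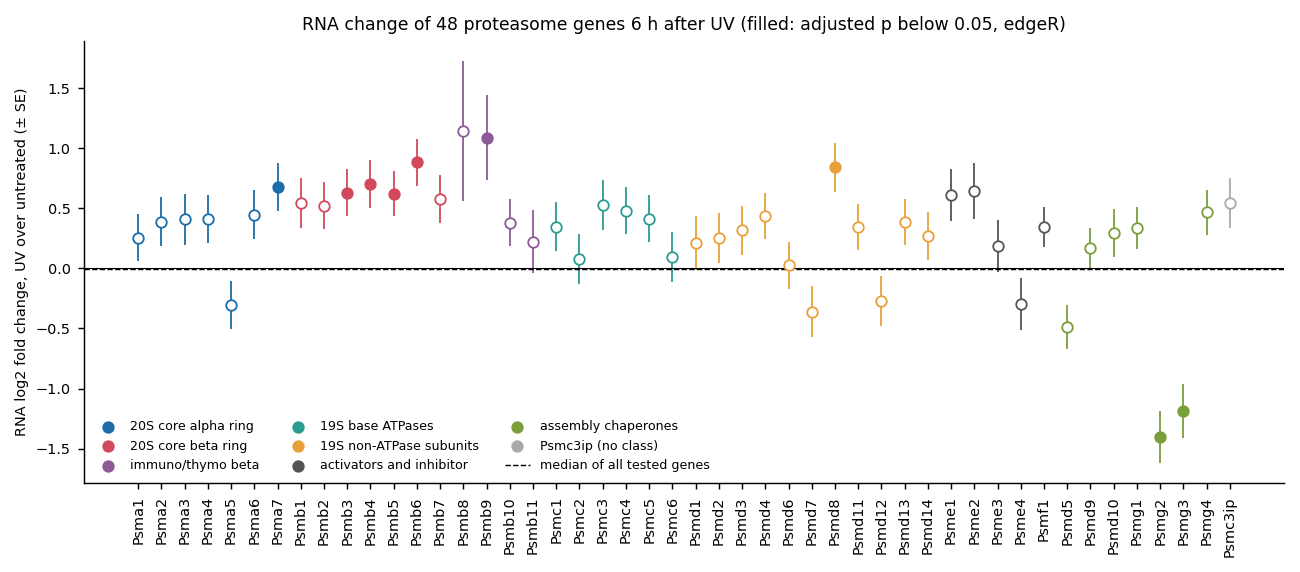
RNA change of the 48 tested proteasome genes, as the log2 fold change of UV over untreated with its standard error (3 libraries per group), grouped and coloured by the role of the product; filled points passed the test. All 7 beta ring points lie between 0.52 and 0.88, and the lowest points are Psmg2 at -1.41 and Psmg3 at -1.19.

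The beta ring, which carries the proteolytic sites, had the highest class median apart from the 4 exchangeable beta subunits, 0.62. Of its 7 genes 4 rose, against 7.7% of all tested genes and 12.2% of those with a mean level above the median of all. All 7 had every UV library above every untreated library in scaled CPM, against 16.6% of all tested genes. That share was 24% of tested genes with a mean level above the median of all. Without the scaling factors the groups of Psmb1 would overlap. All 7 had an unadjusted edgeR p under 0.05, against 13.4% of all tested genes. The count of 4 became 1 without UV replicate 3 (3.75% of all genes higher) and 7 without untreated replicate 2 (12.5% of all). It was 6 without UV replicate 2 (9.12% of all), untreated replicate 1 (11.5%) or untreated replicate 3 (10.1%). Psmb6 encodes the caspase-like catalytic subunit, and its untreated libraries had 113, 137 and 109 CPM against 233, 209 and 221 CPM after UV. The lowest UV library lay well above the highest untreated one. Its log2 fold change was 0.88 ± 0.20 (standard error, n = 3 per group), with an edgeR adjusted p of 0.00324. Psmb5, the chymotrypsin-like subunit and the target of clinical proteasome inhibitors, had 45.6, 52.7 and 37.9 CPM untreated and 79.5, 61.4 and 68.5 CPM after UV. Its groups were also apart, by a smaller gap, with a log2 fold change of 0.62 ± 0.19 and an edgeR adjusted p of 0.0248. Psmb7, the trypsin-like subunit, had 179, 199 and 150 CPM untreated and 285, 236 and 267 CPM after UV. Its groups did not overlap either, yet its log2 fold change of 0.58 ± 0.20 had an edgeR adjusted p of 0.0514, just outside the threshold.

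The noncatalytic beta subunits had values of similar size. Psmb4, a structural subunit, had 208, 247 and 195 CPM untreated and 361, 334 and 361 CPM after UV, with a log2 fold change of 0.70 ± 0.20 (edgeR adjusted p = 0.0178). Psmb3, another structural subunit, had 115, 125 and 103 CPM untreated and 206, 158 and 167 CPM after UV, with a log2 fold change of 0.63 ± 0.20. Its edgeR adjusted p of 0.0295 was the largest of the 4 beta ring genes that rose. In both genes all UV libraries were above all untreated ones. Psmb1 and Psmb2, which complete the ring, did not pass, at log2 fold changes of 0.55 ± 0.21 and 0.52 ± 0.20 with edgeR adjusted p of 0.0779 and 0.0705. RefSeq lists 6 pseudogenes of Psmb5, Psmb6, Psmb7 and Psma5, none of which is a row of the count files. How reads shared with these copies were counted is not given in the sources used here, so the levels of those 4 genes are uncertain to that extent.

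The sequences upstream of 3 of the 4 beta ring genes that rose are shown because they differ in known promoter elements. The other one, Psmb4, held none of the motifs searched and is not shown. Each is the 250 bases before the RefSeq start, read 5′ to 3′ on the gene's strand in GRCm38.p6. Capitals mark exact matches on either strand to TGACNNNGC, the core of the antioxidant response element that NRF1 and NRF2 bind, or to CCAAT, the NF-Y box. Psmb6 lies at chr11:70525107-70525356 on the plus strand, Psmb5 at chr14:54617996-54618245 on the minus strand and Psmb3 at chr11:97703184-97703433 on the plus strand.
Psmb6: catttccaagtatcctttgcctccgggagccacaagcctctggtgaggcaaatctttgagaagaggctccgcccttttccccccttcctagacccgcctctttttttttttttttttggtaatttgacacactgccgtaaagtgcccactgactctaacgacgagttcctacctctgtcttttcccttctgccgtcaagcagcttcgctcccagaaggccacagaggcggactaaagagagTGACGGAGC
Psmb5: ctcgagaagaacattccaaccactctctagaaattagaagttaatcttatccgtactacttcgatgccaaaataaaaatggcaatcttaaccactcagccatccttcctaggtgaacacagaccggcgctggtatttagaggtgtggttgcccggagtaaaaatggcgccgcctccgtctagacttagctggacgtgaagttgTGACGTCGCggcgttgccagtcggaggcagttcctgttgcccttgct
Psmb3: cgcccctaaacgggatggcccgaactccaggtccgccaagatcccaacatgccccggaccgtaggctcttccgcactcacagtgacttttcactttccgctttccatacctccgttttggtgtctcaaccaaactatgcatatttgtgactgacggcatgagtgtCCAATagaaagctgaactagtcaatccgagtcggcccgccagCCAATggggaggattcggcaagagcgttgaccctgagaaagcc
Psmb6 held a TGACNNNGC match that began 9 bases before the start and Psmb5 one that began 47 bases before it. Psmb3 held no such match and had CCAAT at 85 and 43 bases.

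RefSeq promoter sequence was found for 41 of the 49 members. TGACNNNGC matched in 5 of them (12.2%), which were Psmb5, Psmb6, Psmc6, Psmd12 and Psmd9, against 13.8% of tested genes over the same 250 bases. CCAAT matched in 15 members (36.6%) against 39.9% of tested genes. TGACTCA, the AP-1 site, matched in 1 member, Psmd9 (2.44%), against 4.34%; where GC follows it, it is also a TGACNNNGC match. CCGGAAG, an ETS factor site, matched in 13 members (31.7%) against 12.9% of tested genes and 7.83% of all genes with sequence. The 13 include Psmc3ip, and no background matched for level was made for motifs. CCGGAAG was found in 3 of 5 ATPase genes and 5 of 9 non-ATPase genes with sequence, and in 1 of 7 alpha ring and 0 of 4 beta ring genes. A match gives letters, not binding, and no match says only that these letters are not in this window.

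The alpha ring, which gates the entry to the core, had a median log2 fold change of 0.41. It had 1 gene called higher among the 7 tested, against 7.7% of all tested genes. Psma7 had 149, 167 and 118 CPM untreated and 250, 219 and 225 CPM after UV. All UV libraries lay above the untreated ones, with a log2 fold change of 0.68 ± 0.20 and an edgeR adjusted p of 0.0232. Psma2, Psma3, Psma4 and Psma6 also had groups that did not overlap in scaled CPM, at log2 fold changes of 0.39 to 0.45, and none of the 4 passed the test. Of all tested genes 16.6% had every UV library above every untreated one. Without the scaling factors the groups of Psma3, Psma4 and Psma6 would overlap. Psma5 was the only tested alpha or beta ring gene with a value under 0, at -0.30 ± 0.20 (edgeR adjusted p = 0.363), and its groups overlapped. Without untreated replicate 2 the class had 5 calls (12.5% of all genes higher) and a median of 0.64, and without UV replicate 3 it had 0 calls (3.75% of all).

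Among the exchangeable beta subunits Psmb9 rose, from 1.19, 2.78 and 2.91 CPM in untreated libraries to 4.83, 5.73 and 4.17 CPM after UV. The groups did not overlap, and the untreated library with the lowest value was replicate 1. Psmb9 encodes the immunoproteasome counterpart of Psmb6. Its log2 fold change was 1.09 ± 0.35 with an edgeR adjusted p of 0.0369, from 23 to 85 counts per library, and it lost the call without untreated replicate 1, untreated replicate 2, UV replicate 2 or UV replicate 3. Psmb8, the counterpart of Psmb5, had 0.415, 0.5 and 1.11 CPM untreated and 1.67, 1.08 and 1.80 CPM after UV. UV replicate 2 lay just below untreated replicate 3, and on 8 to 31 counts its log2 fold change of 1.14 ± 0.58 did not pass (edgeR adjusted p = 0.204). It was 1.81 without untreated replicate 3 and did not pass there either. Psmb10, the counterpart of Psmb7, had 10.0, 15.6 and 14.3 CPM untreated and 16.1, 17.2 and 18.7 CPM after UV. These groups touched closely without overlap, and the log2 fold change of 0.38 ± 0.19 did not pass (edgeR adjusted p = 0.202). It was 0.63 without untreated replicate 2, again without passing. Psmb11, the subunit of the thymoproteasome of thymic cortex, lay at 4.64 to 9.26 CPM with overlapping groups. It neighbours Psmb5 in RefSeq.

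In the 19S cap, 1 of 17 genes rose, against 7.7% of all tested genes, and the median log2 fold change was 0.32. Psmd8, a lid subunit, had 126, 141 and 108 CPM untreated and 249, 196 and 225 CPM after UV. Its groups lay far apart, with a log2 fold change of 0.84 ± 0.20 and an edgeR adjusted p of 0.00563. The other 10 non-ATPase genes ranged from -0.36 (Psmd7) to 0.43 (Psmd4, a ubiquitin receptor). Psmd1 and Psmd2, the large scaffold subunits of the base, had 0.21 and 0.25 with overlapping groups, and Psmd14, the deubiquitinase of the lid, had 0.27. Psmd7, its inactive partner, and Psmd12 were the cap genes below 0, at -0.36 and -0.27. Without UV replicate 1 both were called lower, and the median of the 11 non-ATPase genes was 0.14 against 0.27 with all libraries. Without untreated replicate 2 that median was 0.44 with 4 calls higher, and without untreated replicate 3 there were 2 calls higher.

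The 6 ATPases, which form the unfolding ring, had a median of 0.38 and no call by edgeR or by DESeq2, with 2 at an unadjusted edgeR p under 0.05. Their log2 fold changes ran from 0.08 ± 0.21 in Psmc2 to 0.53 ± 0.21 in Psmc3. Psmc3 had 212, 223 and 175 CPM untreated and 346, 255 and 278 CPM after UV, without overlap, and an edgeR adjusted p of 0.0853. In Psmc1, Psmc3, Psmc4 and Psmc5 the groups did not overlap, and in Psmc2 and Psmc6 they did. Of all tested genes 16.6% had every UV library above every untreated one. There were 3 calls higher without untreated replicate 1 or untreated replicate 2 and 2 without untreated replicate 3, and the median was 0.25 without UV replicate 1.

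The activators and the inhibitor also had no call by edgeR or DESeq2, with 2 of 5 at an unadjusted edgeR p under 0.05 and a median of 0.34. Psme1 and Psme2, which encode the subunits of the interferon-inducible activator PA28, followed Psmb7 in the order of p. Psme1 had 33.1, 55.9 and 47.2 CPM untreated and 51.8, 74.2 and 81.8 CPM after UV. In both groups replicate 1 was the lowest, and its UV value lay inside the untreated range. The log2 fold change was 0.61 ± 0.22 with an edgeR adjusted p of 0.0580. Psme2 had 53.0, 98.7 and 69.8 CPM untreated and 87.8, 122 and 137 CPM after UV, with the same order of replicates at the low end. Its log2 fold change was 0.64 ± 0.23 (edgeR adjusted p = 0.0595), and both genes were called higher without UV replicate 1. They were also called, with Psmf1, without untreated replicate 2, where Psme1 had 0.92. Psme3, the nuclear activator PA28-gamma, had 0.19 and Psme4, the activator PA200, had -0.30, both with overlapping groups. Psmf1, the inhibitor PI31, had 0.34 without overlap.

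The assembly chaperones held both genes that fell. Psmg2, which with Psmg1 starts the alpha ring, had 23.7, 24.3 and 19.9 CPM untreated and 11.5, 6.13 and 7.93 CPM after UV. The highest UV value was UV replicate 1, and it lay well below every untreated library. The log2 fold change was -1.41 ± 0.22, with an edgeR adjusted p of 0.000152. Psmg3, which works with Psmg4 in alpha ring assembly, had 12.1, 12 and 9.42 CPM untreated and 6.13, 4.31 and 4.23 CPM after UV. Again UV replicate 1 was the highest of its group and below all untreated libraries, and the log2 fold change was -1.19 ± 0.23 with an edgeR adjusted p of 0.000979.

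The partners of these genes lay on the other side of 0. Psmg1 had 24.6, 33.3 and 25 CPM untreated and 33.5, 33.9 and 37.2 CPM after UV, a log2 fold change of 0.34 ± 0.18 (edgeR adjusted p = 0.222). Psmg4 had 8.34, 10.2 and 8.34 CPM untreated and 12.6, 11.7 and 12.9 CPM after UV, a log2 fold change of 0.47 ± 0.19 (edgeR adjusted p = 0.0935). Neither passed, and in both every UV library was above the untreated ones, though narrowly in Psmg1. The difference within each pair was not tested. Of the chaperones of the 19S base, Psmd5 had -0.49 ± 0.18 (edgeR adjusted p = 0.0716) with every UV library below the untreated ones, Psmd9 had 0.17 and Psmd10, known as gankyrin, had 0.30. The median of the 7 was 0.17, and it was -0.07 when libraries were scaled by their totals, 0.0725 without UV replicate 1 and 0.37 without untreated replicate 2, where Psmg1 and Psmg4 were called higher. Psmc3ip, in no class, had 0.54 ± 0.21 without overlap and did not pass (edgeR adjusted p = 0.0789).

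The plot of the called genes by library shows how far the groups lay apart. In the authors' deposited table of 2068 genes, 9 members appear, and they are these 9. That table covers the same RNA comparison, so it is no independent check. Its largest adjusted p is 0.0999, a looser limit than the 0.05 used here. In that table Psmg2 and Psmg3 have log2 fold changes of -1.40 and -1.18 and Psmb6 and Psmd8 of 0.89 and 0.85. Its adjusted p was under 0.05 for 4 higher and 2 lower genes, and was 0.0529 for Psma7, 0.0877 for Psmb3 and 0.0961 for Psmb5.

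**Figure D2:**
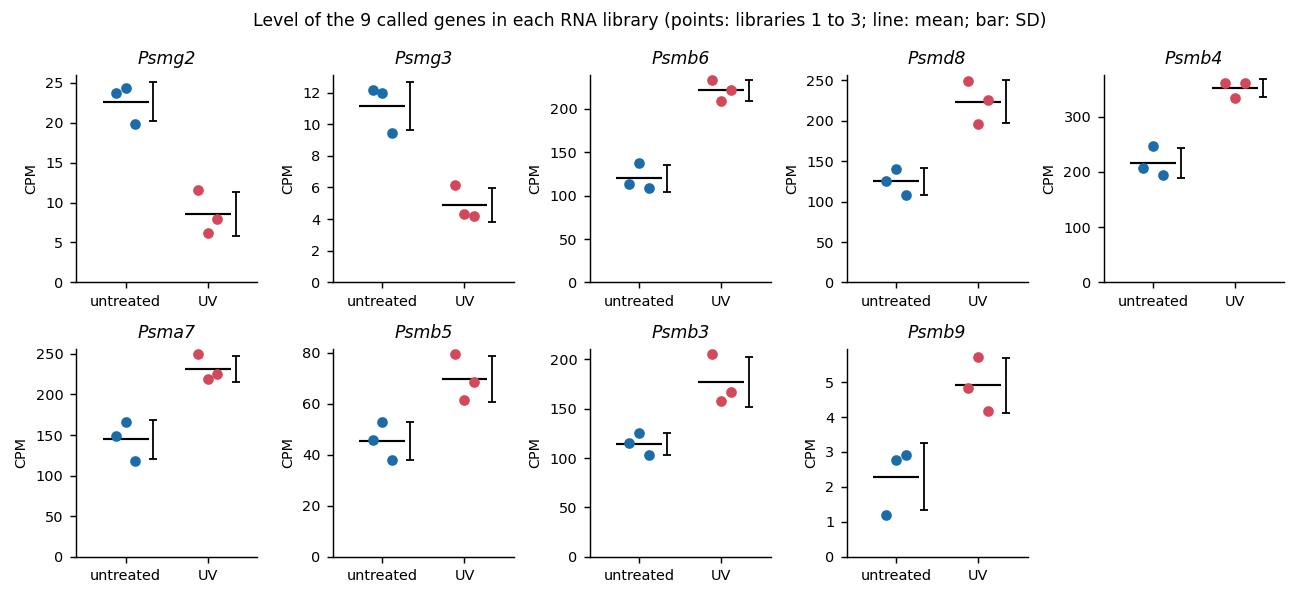
Level of each of the 9 called proteasome genes in every RNA library, in CPM on a linear axis, with untreated and UV libraries as separate points. In 7 genes the UV points all lie above the untreated points, and in Psmg2 and Psmg3 all lie below.

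The core and the cap were compared within each library, where a ratio of summed levels does not change with the scaling of the library. The 20S core genes tested had a median log2 fold change of 0.53 with 5 of 14 called higher. The 19S cap and the activators together had 0.32 with 1 of 21. The difference of these medians was 0.22, and it ran from 0.16 to 0.31 over the 12 RNA alternatives. Of all tested genes 7.7% were called higher, and the counts moved with single libraries. Without untreated replicate 2, 5 alpha and 7 beta ring genes were called higher, with 3 ATPases, 4 non-ATPases and 3 genes for activators and inhibitor. The log2 ratio of the summed CPM of core over cap was -0.43, -0.26 and -0.37 in untreated and -0.29, -0.04 and -0.08 in UV libraries. The UV mean was higher by 0.22, and UV replicate 1 lay inside the untreated range, so the groups overlapped. The log2 ratio of core over the activators Psme1 to Psme4 was 2.16, 2.27 and 2.13 untreated and 2.52, 2.63 and 2.54 after UV. Here all UV libraries were above all untreated ones. Psme3 and Psme4, at log2 fold changes of 0.19 and -0.30, made up most of the activator sum. Psme1 and Psme2, at 0.61 and 0.64, lay above the core median, so the shift does not describe them.

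The rings of the core were compared in the same way. The beta ring summed to 1007, 1218 and 930 CPM untreated and 1730, 1516 and 1657 CPM after UV, and the alpha ring to 1170, 1333 and 942 CPM untreated and 1562, 1351 and 1485 CPM after UV. Both sums were higher in every UV library in scaled CPM, with the alpha ring in UV replicate 2 only just above untreated replicate 2. Without the scaling factors the alpha ring sum of UV replicate 1 would lie below that of untreated replicate 2. The log2 ratio of beta over alpha was -0.22, -0.13 and -0.02 untreated and 0.15, 0.17 and 0.16 after UV. Every UV library was above every untreated one in this ratio. All members together held 0.592 to 0.654% of counts untreated and 0.658 to 0.684% after UV. A sum is set mostly by its best expressed genes, and no gene lengths were at hand, so only the shift of a ratio between groups can be read, and not which genes had the higher level.

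**Figure D3:**
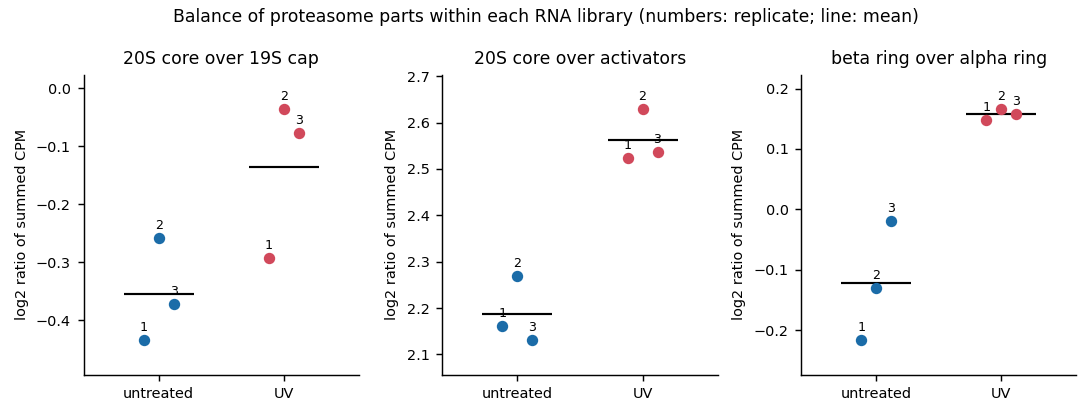
Log2 ratios of summed CPM between parts of the proteasome in each of the 3 untreated and 3 UV RNA libraries, with the group means. The UV points lie above the untreated points for core over activators and for beta over alpha ring, and UV replicate 1 lies among the untreated points for core over cap.

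Promoters were compared in the deposited tables of reads within 1000 bp windows at gene starts. Each table pools the reads of both samples per condition, so there is no spread between samples and no test. The measure is the difference in log2 enrichment over input, UV minus untreated, with 16 reads added, where 1 or more is called a gain and -1 or less a loss.

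H3K27ac was higher after UV at most proteasome promoters, while that of all tested genes was centred near 0. The median difference was 0.28 for the 48 tested members and -0.06 for all tested genes, and 36 members lay above the latter. There were 3 gains, at Psmd11, Psmb9 and Psmc1, and 1 loss, at Psme1, against 2.93% of tested genes with a gain and 4.26% with a loss. These few gains and losses are near the background, and the values below describe the single promoters. The members were more acetylated than most genes before UV, with a median log2 enrichment of 3.16 against 2.37. Among the 7463 promoters with mean enrichment above the median of all, a background chosen after the data were seen, the median difference was 0.13, and it was 0.30 for the 40 members in it. The exact 95% interval of the depth-scaled read ratio, which covers counting error only, lay above 1 at 26 promoters, below 1 at 6 and spanned 1 at 16.

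The 19S cap stood highest by this measure. Its median was 0.37, and 16 of its 17 promoters lay above the median of all genes, against 10 of 14 for the core with a median of 0.26. All 6 ATPase promoters were among them. Psmd11, a lid subunit, had 186 reads untreated and 512 after UV, a difference of 1.38 and a read ratio of 2.73 (interval 2.30 to 3.25). Psmc1 had 45 and 116 reads, a difference of 1.11 and a ratio of 2.56 (interval 1.80 to 3.69). Psmd8, the cap gene whose RNA rose, had 51 and 113 reads and a difference of 0.94, just under a gain. Psmd13 alone in the cap was below the median of all genes, at -0.15. Psma6 of the alpha ring came closest to a gain without reaching it, with 656 and 1296 reads and a difference of 0.96.

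The 250 bases before the Psmd11 start are shown as the promoter with the largest gain. They lie at chr11:80428365-80428614 on the plus strand (RefSeq, GRCm38.p6), a build other than the mm9 of the submitters' processing notes. The window of the read counts spans 1000 bp and its coordinates are not given. How far the bases shown lie inside that window is therefore not known. Capitals mark the ETS site CCGGAAG on the opposite strand, 11 bases before the start.
Psmd11: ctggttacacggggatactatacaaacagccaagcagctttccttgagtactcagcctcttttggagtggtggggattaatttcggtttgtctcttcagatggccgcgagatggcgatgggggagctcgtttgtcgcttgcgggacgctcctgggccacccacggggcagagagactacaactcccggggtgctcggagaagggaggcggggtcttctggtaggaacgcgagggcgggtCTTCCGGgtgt

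Psmb9 had 493 H3K27ac reads untreated and 1255 after UV, a difference of 1.31 and a ratio of 2.52 (interval 2.27 to 2.81), and was the one member with a gain whose RNA also rose. Psmb8 and Psmb10, the other immunoproteasome genes, had -0.38 on 41 and 28 reads and -0.73 on 152 and 86 reads. In RefSeq, Psmb9 shares its upstream region with Tap1, the peptide transporter of MHC class I, with 225 bases between the genes on chromosome 17, and Psmb8 is the next gene beyond Tap1. The promoter window of Tap1 had 282 and 346 reads. The Psmb9 sequence, at chr17:34187331-34187580 on the minus strand, is shown for this shared region. Capitals mark CCAAT on the opposite strand, 8 bases before the start.
Psmb9: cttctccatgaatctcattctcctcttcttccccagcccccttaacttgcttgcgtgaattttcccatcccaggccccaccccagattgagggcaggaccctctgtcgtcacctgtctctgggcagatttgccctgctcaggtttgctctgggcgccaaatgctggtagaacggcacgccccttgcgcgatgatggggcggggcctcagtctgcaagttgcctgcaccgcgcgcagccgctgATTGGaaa

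Acetylation and RNA differed in sign at several members. Psme1 had the one loss, from 296 to 138 reads, a difference of -1.03 and a ratio of 0.462 (interval 0.375 to 0.568), and its RNA value was 0.61. Its neighbour Psme2, from which it is separated by the gene Emc9, had -0.27. Psmb3 and Psma7 rose in RNA and had H3K27ac differences of -0.56 (407 and 272 reads) and -0.37 (601 and 465 reads). Psmg2 and Psmg3 fell in RNA and had differences of 0.36 (517 and 671 reads) and 0.24 (242 and 289 reads). Over the 48 members Spearman's rho between the RNA and the H3K27ac change was -0.14, and over all tested genes 0.05. These points share the libraries and are no independent replicates. The sequence before Psmg3, at chr5:139826895-139827144 on the minus strand, is given as that of a gene whose transcript fell, and it holds none of the 4 motifs searched.
Psmg3: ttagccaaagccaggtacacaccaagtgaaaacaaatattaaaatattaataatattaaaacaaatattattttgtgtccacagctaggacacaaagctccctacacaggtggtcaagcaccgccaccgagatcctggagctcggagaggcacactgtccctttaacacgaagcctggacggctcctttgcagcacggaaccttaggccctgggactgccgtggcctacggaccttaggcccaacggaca

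**Figure D4:**
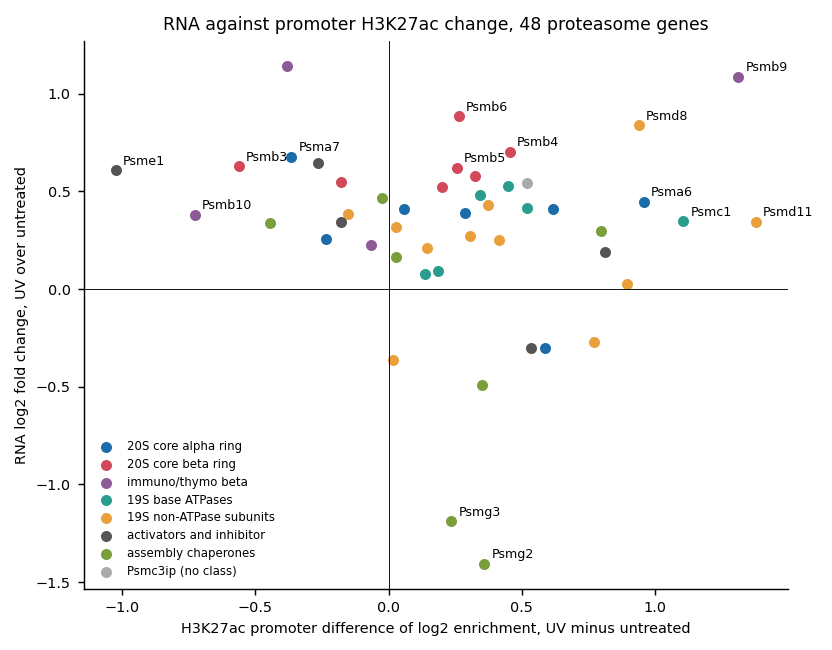
RNA log2 fold change against the H3K27ac promoter difference, both UV against untreated, for the 48 tested proteasome genes. Psmb9 is high on both axes, Psmg2 and Psmg3 lie low in RNA with H3K27ac differences above 0, and Psme1 lies at the lowest H3K27ac value.

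FAIRE was lower after UV at 47 of the 48 tested members, with no gain and no loss, against 0.0067% of tested genes with a gain and 1.39% with a loss. The median difference was -0.41, against -0.27 for all tested genes, of which 76.7% lay below 0. Set against that median of all genes, 33 members lay below it and 15 above. Open promoters had lower values in general: among the 7463 promoters with mean FAIRE enrichment above the median of all, a background again chosen after the data were seen, the median was -0.45 and 94.7% lay below 0. The 41 members in that background had -0.43. Enrichment in untreated cells had a median of 1.44 at the members and 0.84 at all tested genes.

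The class medians of FAIRE lay between -0.24 for the assembly chaperones and -0.49 for the activators and inhibitor. Psme1 was lowest, with 56 reads untreated and 17 after UV and a difference of -0.96, and Psme2 followed with 144 and 66 reads and -0.81. Psma3, with 81 and 36 reads, had -0.78. At the other end, Psmc1 had 21 and 24 reads and 0.28, Psmd5 had 102 and 85 reads and -0.03, and Psmc2 had 50 and 41 reads and -0.05; the last 2 were above 0 with 1 read added, as a read ratio without input or when centred on all promoters. The counts were small, with medians of 77.5 reads untreated and 46 after UV, and the interval of the read ratio lay below 1 at 15 promoters, spanned 1 at 33 and was above 1 at none. Psmb9 and Psmd11, with gains in H3K27ac, had FAIRE differences of -0.43 and -0.22. Spearman's rho of FAIRE and RNA change over the 48 members was -0.20, a description with the same limits.

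**Figure D5:**
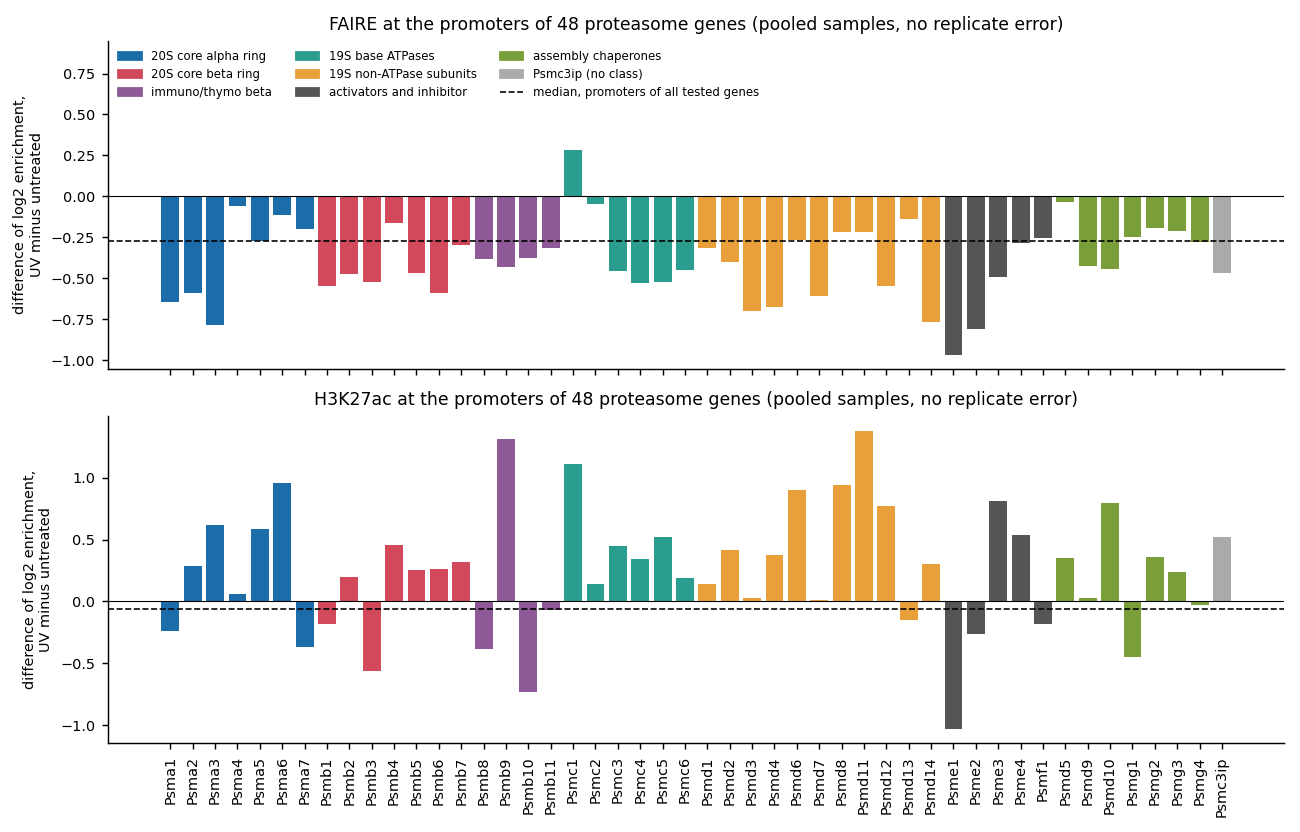
Difference in log2 enrichment, UV minus untreated, at the promoter of each tested proteasome gene for FAIRE and H3K27ac, by class of the product, with the median of all tested genes as a line. The FAIRE bars lie below 0 except Psmc1, and the H3K27ac bars run from -1.03 at Psme1 to 1.38 at Psmd11.

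Genes that work with the proteasome were taken from lists set by function. Of all tested genes, 7.7% were called higher and 12.4% lower. Among the 7463 tested genes with a mean level above the median of all, these shares were 12.2% and 16%. No list was tested against these shares, so the counts below are no result about a list as a whole. Of 16 tested genes for associated proteins and subunits without a Psm symbol, 4 rose and 3 fell (median 0.41). Shfm1, a small lid subunit, rose by a log2 fold change of 0.80 ± 0.20 (edgeR adjusted p = 0.00752) and Ubqln2, a shuttle for ubiquitinated proteins, by 0.67 ± 0.18 (edgeR adjusted p = 0.0145). Adrm1, a ubiquitin receptor of the cap, rose by 0.62 ± 0.20 (edgeR adjusted p = 0.0359). Zfand5, a proteasome-binding zinc finger protein, fell, with -1.0 ± 0.20 (edgeR adjusted p = 0.00154), as did Akirin2 and Txnl1. Pomp, the chaperone of core assembly outside the Psm symbols, had 0.58 ± 0.20 and did not pass (edgeR adjusted p = 0.0525).

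Of 9 tested ubiquitin and E1 genes, 3 rose and 1 fell (median 0.21). Rps27a, which encodes ubiquitin fused to a ribosomal protein, had 502, 696 and 426 CPM untreated and 1093, 1131 and 1160 CPM after UV. The groups lay far apart, with a log2 fold change of 1.06 ± 0.22 (edgeR adjusted p = 0.00207). Ubb, a polyubiquitin gene, rose by 1.04 ± 0.21 (edgeR adjusted p = 0.00147). Uba6, an E1 enzyme, fell, with -0.72. Of 13 genes of the segregase VCP and its cofactors, 3 rose (median 0.14), namely Yod1 at 1.22, Ubxn6 at 0.63 and Ubxn1 at 0.57.

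The list of NRF1 control genes had 2 that rose and 3 that fell among 10 (median -0.11). Nfe2l1 itself was at 0.07 ± 0.21 (edgeR adjusted p = 0.938). Bach1, a repressor at antioxidant elements, fell, with -1.24 ± 0.18 (edgeR adjusted p = 0.000112), and so did Nfe2l2, which encodes NRF2, with -0.99 ± 0.18 (edgeR adjusted p = 0.000571), while the small MAF gene Maff rose by 1.12 ± 0.18 (edgeR adjusted p = 0.000261). Keap1, which fell, and Mafg, which rose, complete the 5.

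Of 11 genes of MHC class I antigen processing, which uses proteasome products, 4 rose by edgeR and by DESeq2 (median 0.46). Tap1 had 15.5, 21.9 and 21.3 CPM untreated and 62.6, 38.4 and 51.5 CPM after UV, a log2 fold change of 1.37 ± 0.21 (edgeR adjusted p = 0.000120), and the groups lay far apart. H2-D1 and H2-K1, class I heavy chains, rose by 1.03 and 1.01, and the light chain B2m by 0.87. The COP9 signalosome, a complex whose architecture resembles that of the 19S lid, had 1 gene that rose, Cops6 at 0.82, and 1 that fell, Cops7b at -0.92, among 9 (median 0.21). None of the 8 genes of the chaperonin TRiC, another large cytosolic complex, was called by edgeR or DESeq2. Their median was 0.27, with Cct7 alone at an unadjusted edgeR p under 0.05 (0.53 ± 0.21).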

How the data were processed

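Counts per gene and library were made by the authors and deposited unscaled as whole numbers. The promoter tables hold pooled read counts per condition and input and log2 enrichment, both deposited by the authors; the latter was recomputed exactly from reads plus 16 and scaled input plus 16, with input scales of 0.6571 and 0.5276 for FAIRE and 0.7059 and 0.7119 for H3K27ac (untreated, UV). The authors' deposited table also holds a p-value and adjusted p-value of the RNA comparison, which were used only where that table is named. All other RNA p-values given come from edgeR. Per the submitters' processing notes, the upstream tools were DESeq2, MACS2, TopHat and Bowtie 0.12.9 with build mm9, whose roles the sources used here do not give. Columns headed DMSO were taken as irradiated, since the labels' protocol gives irradiated cells DMSO, and 8 further columns that match no sample were not used.

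Counts were analysed with edgeR 4.0.16 in R 4.3.3 (filterByExpr, TMM, quasi-likelihood test, Benjamini-Hochberg over 14925 genes, threshold 0.05; biological coefficient of variation 0.237). CPM and the other values were computed with Python 3.11.15, numpy 2.4.6, pandas 2.3.3 and scipy 1.17.1, and figures with matplotlib 3.10.9. The members, classes, pathway lists and tests were chosen with earlier results of these data known. Values in every library were given for the called members, the catalytic subunits and the 2 tested members on each side of the threshold; Psmc3, Psmg1 and Psmg4, Psme2 and Psmb11's range were added after their values were seen. For each pathway list up to 3 called genes by smallest p were named with their values, and for each promoter assay the 3 highest and 3 lowest members; further genes of these lists and promoters were named after their values were seen. Some single genes of the pathway lists are not reported here. In simulated data drawn for UV against untreated (14307 genes), edgeR recovered 69 of 104 genes changed by a log2 of 1 and 87 of 94 changed by a log2 of 2, and called 13 unchanged genes. Alternatives were DESeq2 1.42.0, its size factors, library totals, other filters, the replicate number as a block, each library left out, and for promoters centring, 1 read added, the read ratio and a threshold of 0.58. All 49 member symbols matched RefSeq GRCm38.p6.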

Additional observations from a re-analysis of the deposited data

How the results depend on the processing

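The median of the chaperones changed sign in RNA with library totals, and in FAIRE when centred on all promoters, as did the FAIRE values of Psmc2 and Psmd5 when centred, with 1 read added or as a read ratio. Centred on all promoters, 15 members lay above 0 in FAIRE, among them Psmd11 at 0.05. Library totals moved the median of all genes by more than some RNA values, such as Psme3 at 0.19 and Nfe2l1 at 0.07. The sign of such small values, and of list medians of that size, can depend on the scaling. The RNA medians of the other classes kept their direction in the alternatives run. Psmb6, Psmd8, Psmg2 and Psmg3 were called in every RNA alternative. Without a filter on low counts 3 members were higher, with 0 in the alpha ring and 1 in the beta ring, 2 higher and 1 lower among associated proteins and 1 higher in the VCP list. With 1 CPM required in 3 libraries 14 members were higher, with 7 in the beta ring, 2 ATPases, 2 non-ATPases and 1 chaperone, and there were 7 higher associated genes, 2 lower ubiquitin or E1 genes and 1 higher TRiC gene. DESeq2 gave 1 lower associated gene and 0 lower ubiquitin or E1 genes. Scaling by library totals, under which the median of all genes was -0.24, gave 7 lower members, with 1 in the alpha ring, 2 non-ATPases and 1 activator. It also gave 1 higher ATPase and 0 higher exchangeable beta genes, and among the pathway lists 5 lower associated, 2 ubiquitin or E1, 3 VCP, 5 NRF1 and 3 COP9 genes. The medians became 0.15 for all members, 0.18 for the alpha ring, 0.39 for the beta ring, 0.14 for ATPases, 0.0354 for non-ATPases, 0.10 for activators and inhibitor and -0.0697 for chaperones. Fewer or more genes tested is the construction of the filters; the cause of the other changes was not tested.

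With the replicate block 10 members were higher and 2 lower, and 2 of the activators, Psme1 and Psme2, were higher. Same-numbered libraries deviated together with correlations of 0.155, -0.58 and 0.504, so the numbers were not taken as pairs, and not every library correlated best with its own number.

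Leaving out each library in turn, the members called higher ranged from 2 to 25 and lower from 2 to 5, while 3.75 to 12.5% of all genes were called higher and 7.31 to 18.3% lower. Their median ranged from 0.32 to 0.60. The genes called higher ranged from 0 to 5 in the alpha ring, 1 to 7 in the beta ring, 0 to 1 among exchangeable beta subunits, 0 to 3 among ATPases, 1 to 4 among non-ATPases (0 to 2 lower), 0 to 3 among activators and inhibitor and 0 to 2 among chaperones. Class medians ranged from 0.34 to 0.64 in the alpha ring, 0.50 to 0.84 in the beta ring, 0.63 to 1.04 in exchangeable beta subunits, 0.25 to 0.55 in ATPases, 0.14 to 0.44 in non-ATPases, 0.23 to 0.51 in activators and inhibitor and 0.0725 to 0.37 in chaperones. For the pathway lists the counts were 1 to 8 higher and 1 to 3 lower (associated), 0 to 2 lower (ubiquitin and E1), 1 to 4 higher and 0 to 2 lower (VCP), 1 to 2 higher (NRF1), 0 to 1 higher (TRiC) and 1 to 4 higher (COP9).

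For FAIRE the members' median was -0.14 when centred on all promoters and -0.27 as a read ratio without input, and losses numbered 1 with 1 read added and 10 at a threshold of 0.58, which 18.6% of all tested promoters reached. For H3K27ac, 11 gains and 2 losses passed 0.58, against 10.9% and 14.5% of all, and centring left 0 losses. With reads pooled, no spread between chromatin samples can be had. The overlap of promoters with peaks was not run, since the promoter tables used here give no coordinates, and levels per coding length were not run, since no lengths were at hand.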
